A study of Mus musculus with 14 samples.

Results

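Collagens are the proteins of the extracellular matrix that fold as triple helices, and the mouse genome encodes their chains in a gene family named by type and chain, such as Col4a1 for the first chain of type IV. The collagen genes were taken as every protein-coding gene whose symbol begins with Col, a type number, the letter a and a chain number. This rule matched 45 of the 54446 genes measured, of which 21923 are protein coding. One match, Col4a3bp, encodes the ceramide transfer protein and is no collagen, so it was set apart and 44 collagen genes were described. Of these, 11 are fibrillar, 6 are the type IV chains of basement membranes, and 27 belong to other classes. A gene was tested when its value was at least 10 in at least 6 of the 14 libraries. By this filter 40 of the 44 were tested, 32 of the 44 were at 10 or more in every library, and every gene tested reached 10 in libraries of both groups. Col2a1 and Col10a1 reached 10 in 6 knockouts and 3 controls, and Col6a4 in 6 knockouts and 4 controls. For these genes the knockouts alone met the filter, which limits their tests. Col7a1, Col9a1, Col9a2 and Col28a1 stayed below the filter.

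The libraries came from the flash-frozen livers of 5-week-old C57BL/6 mice. The knockout group, with 8 libraries, carried a floxed Mettl3 gene and the Alb-Cre transgene, and the control group, with 6 libraries, is labelled as floxed Mettl3 alone. Mettl3 encodes the catalytic subunit of the enzyme that places N6-methyladenosine on RNA. Alb-Cre uses the albumin promoter and recombines in hepatocytes and, through their shared progenitors, in bile duct cells. The stellate cells and portal fibroblasts regarded as the main source of fibrillar collagens in liver thus keep the gene. Hepatocytes, which make Col18a1, are among the cells that recombine. The labels number the libraries but do not say that each is a separate mouse or give a sex, so p-values measure only the spread between these libraries.

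Fibrillar collagens, such as types I, III and V, assemble into the banded fibres of portal tracts and scars, and in liver they come mainly from stellate cells and portal fibroblasts. Type IV collagen forms a sheet-like network rather than fibres. Its trimers are built from fixed chain combinations, of which the pair encoded by Col4a1 and Col4a2 is the general one, and the chains of Col4a3, Col4a4, Col4a5 and Col4a6 occur in more specialised membranes. The remaining collagens include those that sit on fibril surfaces (FACITs), the beaded filaments of type VI, the transmembrane collagens, and the multiplexins, whose member Col18a1 is made by hepatocytes and yields endostatin.

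The 6 type IV genes lie in the genome as 3 head-to-head pairs, transcribed away from a shared region between them. In the GENCODE M21 annotation of GRCm38 (mm10), the starts of Col4a1 and Col4a2 are 21 bases apart, and the annotated genes overlap by 22 bases at these starts. The starts of Col4a3 and Col4a4 are 72 bases apart, and those of Col4a5 and Col4a6 are 1309 bases apart. The promoter windows below, from RefSeq on GRCm38.p6, run from 250 bases before to 50 bases after the start and are written 5′ to 3′ on the strand of each gene. The first pair is shown because both genes were higher in knockouts. Capitals in this pair mark the 78 bases that both windows hold, on opposite strands.
Col4a1, chr8:11312777-11313076, minus strand: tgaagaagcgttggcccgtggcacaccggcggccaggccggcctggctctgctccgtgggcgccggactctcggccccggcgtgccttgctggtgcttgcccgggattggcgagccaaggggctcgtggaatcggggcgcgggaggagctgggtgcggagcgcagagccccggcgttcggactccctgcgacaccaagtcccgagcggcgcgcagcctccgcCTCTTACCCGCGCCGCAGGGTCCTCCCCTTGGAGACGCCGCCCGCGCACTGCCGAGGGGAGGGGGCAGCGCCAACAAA
Col4a2, chr8:11312555-11312854, plus strand: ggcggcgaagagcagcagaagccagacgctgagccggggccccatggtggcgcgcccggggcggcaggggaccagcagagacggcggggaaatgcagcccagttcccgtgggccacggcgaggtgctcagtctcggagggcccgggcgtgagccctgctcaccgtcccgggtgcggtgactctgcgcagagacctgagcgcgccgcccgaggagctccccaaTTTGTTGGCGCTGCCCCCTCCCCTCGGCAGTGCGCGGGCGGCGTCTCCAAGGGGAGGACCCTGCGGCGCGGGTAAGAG
The windows were 74.0% and 73.7% G or C for Col4a1 and Col4a2, with 1 and 3 GC boxes (GGGCGG on either strand), 1 CCAAT box each and no TATA box (TATAAA).

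The second pair is shown because its members differed in response: Col4a5 was higher in knockouts, and its partner Col4a6 did not pass the test. With Col20a1, the collagen with the largest change, the windows are as follows, with capitals marking CCAAT, GC and TATA box letters on either strand.
Col4a5, chrX:141475169-141475468, plus strand: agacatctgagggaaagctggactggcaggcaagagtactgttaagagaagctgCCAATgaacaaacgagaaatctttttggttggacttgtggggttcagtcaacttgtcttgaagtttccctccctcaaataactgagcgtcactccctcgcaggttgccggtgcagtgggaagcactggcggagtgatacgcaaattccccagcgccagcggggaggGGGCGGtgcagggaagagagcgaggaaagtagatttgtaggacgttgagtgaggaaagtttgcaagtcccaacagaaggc
Col4a6, chrX:141474027-141474326, minus strand: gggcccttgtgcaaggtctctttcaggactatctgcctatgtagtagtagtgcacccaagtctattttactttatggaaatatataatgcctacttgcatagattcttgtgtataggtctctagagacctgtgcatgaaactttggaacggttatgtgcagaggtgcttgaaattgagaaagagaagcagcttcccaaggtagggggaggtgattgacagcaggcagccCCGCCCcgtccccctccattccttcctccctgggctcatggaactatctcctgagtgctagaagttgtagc
Col20a1, chr2:180986285-180986584, plus strand: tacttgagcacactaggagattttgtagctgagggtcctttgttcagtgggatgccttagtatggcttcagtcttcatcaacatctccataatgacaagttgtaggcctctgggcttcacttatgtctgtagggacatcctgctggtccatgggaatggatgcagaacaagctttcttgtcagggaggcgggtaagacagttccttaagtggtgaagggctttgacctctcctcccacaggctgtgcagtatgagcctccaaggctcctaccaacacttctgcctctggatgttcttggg
The windows of Col4a5 and Col4a6 do not meet, and the Col20a1 window held none of the 3 boxes. Windows were available for 35 of the 44 collagen genes, 38 windows in all. A GC box was present in 60.5% of the collagen windows, against 35.7% of all 32851 windows of this length. A CCAAT box was present in 34.2% of collagen windows and 37.4% of all windows, and a TATA box in 13.2% and 13.6%. A letter match of this kind describes the window and shows no binding.

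Collagen transcripts are also known as targets of the miR-29 family, small RNAs that lower the messages they pair with, mainly through the seed at bases 2 to 8. The mature forms from RefSeq are shown with the seed in capitals.
mmu-miR-29a-3p: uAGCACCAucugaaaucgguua
mmu-miR-29b-3p: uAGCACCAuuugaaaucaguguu
mmu-miR-29c-3p: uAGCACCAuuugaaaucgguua
All 3 share 1 seed, whose match in a message reads TGGTGCT. It occurred in the annotated 3′ UTR of 23 of the 40 collagen genes tested (57.5%), against 15.03% of 16095 protein-coding genes tested, taking 1 transcript per gene. For 1 of the 40, Col18a1, the transcript used had no annotated 3′ UTR. All 6 type IV genes and 9 of 11 fibrillar genes held a match, whether or not they were called. One match each is shown for 3 genes called higher and 2 genes not called, to let the letters around it be compared, with capitals marking the seed match.
Col4a1: gccaccgtcacaacaTGGTGCTac
Col4a2: gtgggaaggccacgtTGGTGCTta
Col4a5: cactgctcccaccaaTGGTGCTaa
Col1a1: gtgggaaggaatttcTGGTGCTat
Col3a1: ttcaaaatgtctcaaTGGTGCTat
Col20a1 and Col1a2 held no match. GGACT, the most common form of the sequence at which METTL3 methylates adenosine, occurred at a median of 1.69 per kilobase of transcript in the collagen genes tested, 2.62 in the type IV genes and 1.03 in all protein-coding genes tested. The processed values hold no measurement of mature miR-29 or of methylation, so these matches are a description of the sequences.

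Values are normalised estimated counts per gene, made by the authors with kallisto and sleuth. Mettl3 itself averaged 99.5 ± 15.7 (SD, n = 8) in knockouts and 223 ± 23.7 (SD, n = 6) in controls, and every knockout library was below every control library, with a log2 change of -1.17 (SE 0.12, adjusted p = 1.32e-05). Depth, in units of 1000000 estimated reads, ran from 11.1 to 30.9 in knockouts and from 13.7 to 33.8 in controls. Sex-linked transcripts split the libraries into a Y-positive class (replicates 1 to 4 of both groups, Xist at 29.6 to 60.3) and an Xist-high class (knockouts 5 to 8 and controls 5 and 6, Xist at 6565 to 11123). Depth ran with this class, at 24.3 to 33.8 for Y-positive and 11.1 to 19.3 for Xist-high libraries, so that sex and depth cannot be told apart. Knockouts 3, 6 and 7 stood apart on the first principal component, and Cdkn1a, a cell cycle inhibitor of the p53 response, was 481 to 549.6 in them, 49.9 to 162 in the remaining 5 knockouts and 18.3 to 41.1 in controls. Albumin, the defining hepatocyte product, averaged 88709 ± 20490 in knockouts and 185178 ± 35514 in controls (SD, n = 8 and 6). In whole tissue, fewer cells of a type and less RNA per cell cannot be told apart.

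Of the 40 collagen genes tested, 5 were higher and 1 was lower in knockouts by limma on log2(value + 1), at a Benjamini-Hochberg adjusted p of at most 0.05 over 23554 genes. The higher genes were Col4a1, Col4a2, Col4a5, Col20a1 and Col22a1, and the lower gene was Col27a1. The same call was made for 11.5% of all genes tested as higher and for 11% as lower. The collagen shares of 12.5% higher and 2.5% lower are read against those, and the higher share is near the background. All 8 knockout libraries lay above all 6 control libraries for 3 collagens, Col4a1, Col4a2 and Col20a1, against 4.14% of all genes. No collagen had every knockout below every control, against 4.02% of all genes. The median log2 change was 0.13 over the 40 collagens and 0.05 over all genes. In the authors' deposited table, 5 collagens had a q of at most 0.05 (the calls above without Col22a1), against 17.1% of 27865 genes with a q.

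The scaling of the libraries bears on these counts. Summed values outside ribosomal RNA, in units of 1000000, were 15.2 to 18.6 in knockouts and 19.7 to 23.5 in controls. Scaling to equal sums put the median log2 change of all genes at 0.38 in place of 0.05, and gave 7836 genes higher and 868 lower in place of 2697 and 2583. On that scale the 40 collagens had a median of 0.45, and 10 were called higher and 1 lower, all 6 calls above among them, with Col2a1, Col5a3, Col16a1, Col18a1 and Col26a1 added.

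**Figure D1:**
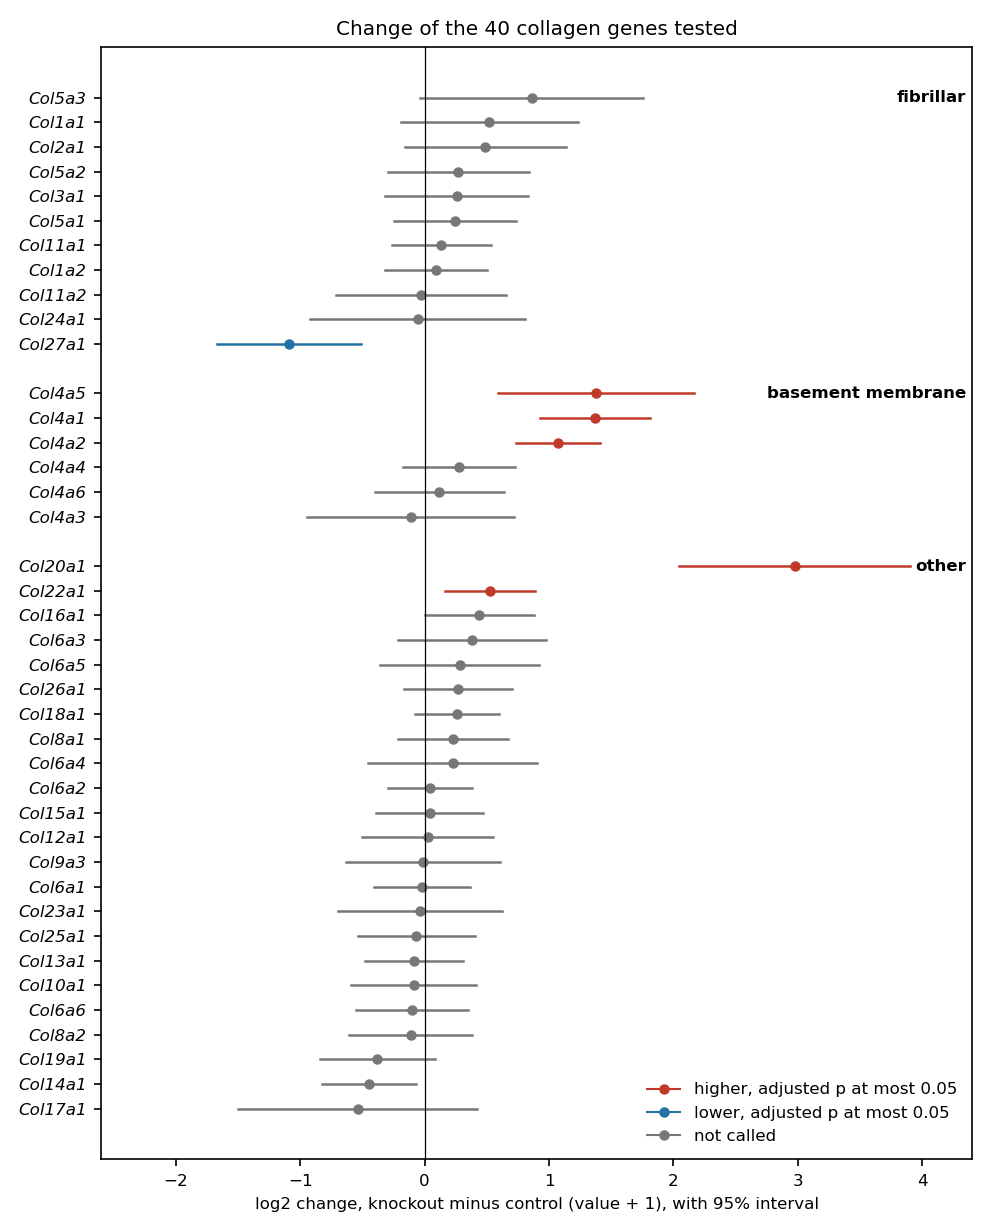
Log2 change, knockout minus control, of the 40 collagen genes tested, with 95% intervals (limma, 8 knockouts and 6 controls), grouped as fibrillar, basement membrane and other. Red marks the 5 genes called higher, blue the 1 called lower (Col27a1), and grey the 34 not called, most of whose intervals include 0.

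Both chains of the general type IV network were higher in knockouts. Col4a1 (ENSMUSG00000031502, chromosome 8, 11198423 to 11312826, minus strand) had values of 358, 399.5, 991, 473, 519.8, 757, 737 and 434 in knockouts 1 to 8, against 169, 193, 229.5, 221, 211 and 266 in controls 1 to 6. The groups did not overlap, and knockouts 3, 6 and 7 were the 3 highest libraries. The log2 change was 1.37 (SE 0.21, 95% interval 0.92 to 1.81, adjusted p = 0.000334), a fold of 2.58. Col4a2 (ENSMUSG00000031503, chromosome 8, 11312805 to 11449287, plus strand) had values of 326, 363, 540.1, 449, 469, 541, 519.6 and 328 in knockouts 1 to 8, against 154, 206, 273, 200.3, 180 and 241 in controls 1 to 6. These groups too were apart, again with knockouts 3, 6 and 7 at the top. This gave a log2 change of 1.07 (SE 0.16, 95% interval 0.74 to 1.41, adjusted p = 0.000251), a fold of 2.10. Without knockouts 3, 6 and 7 the log2 change was 1.02 (adjusted p = 0.000291) for Col4a1 and 0.89 (adjusted p = 0.00214) for Col4a2. Within the classes the log2 change of Col4a1 was 1.33 among Y-positive libraries and 1.33 among Xist-high ones, and that of Col4a2 was 1.01 among Y-positive libraries and 1.13 among Xist-high ones. The Xist-high libraries, 4 knockouts and 2 controls, did not give a call for either gene on their own (adjusted p = 0.0738 and 0.0949). The 22-base annotated overlap between the genes, and antisense transcripts annotated inside both, matter where reads are not assigned by strand, which the sources used here do not state.

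Col4a5 (ENSMUSG00000031274, chromosome X, 141475385 to 141689234, plus strand), which encodes a chain of the specialised type IV networks, split the knockouts. It had values of 156, 148, 502, 117, 119, 468, 481 and 211 in knockouts 1 to 8, against 57.1, 59.5, 103, 127, 99.1 and 104 in controls 1 to 6. Knockouts 3, 6 and 7 were at 468 to 502, the remaining 5 at 117 to 211, and knockouts 4 and 5 lay within the control range. The log2 change was 1.38 (SE 0.37, 95% interval 0.59 to 2.16, adjusted p = 0.0147). Without knockouts 3, 6 and 7 it was 0.73 (adjusted p = 0.0424), so its size depended on those 3 libraries. It was 1.22 among Y-positive libraries and 1.43 among Xist-high ones, where it no longer passed (adjusted p = 0.0887 and 0.245).

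The other type IV chains did not pass the test. Col4a3 ran from 60.3 to 342 in knockouts and from 88.6 to 341 in controls, with a log2 change of -0.11 (SE 0.39, 95% interval -0.94 to 0.72, adjusted p = 0.871). Col4a4 ran from 48.1 to 84.0 in knockouts and from 24.5 to 77.0 in controls, with a change of 0.28 (SE 0.21, 95% interval -0.17 to 0.73, adjusted p = 0.38). Col4a6, the head-to-head partner of Col4a5, ran from 17.9 to 30.7 in knockouts and from 9.84 to 38.0 in controls, with a change of 0.12 (SE 0.24, 95% interval -0.40 to 0.64, adjusted p = 0.775). Their group ranges overlapped, and the interval for Col4a3 allowed changes of up to about 1 log2 unit in the lower direction. Type IV held 3 of the 5 collagens called higher, 3 of its 6 genes, with a median log2 change of 0.67, against 11.5% of all genes called higher and a median of 0.05.

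**Figure D2:**
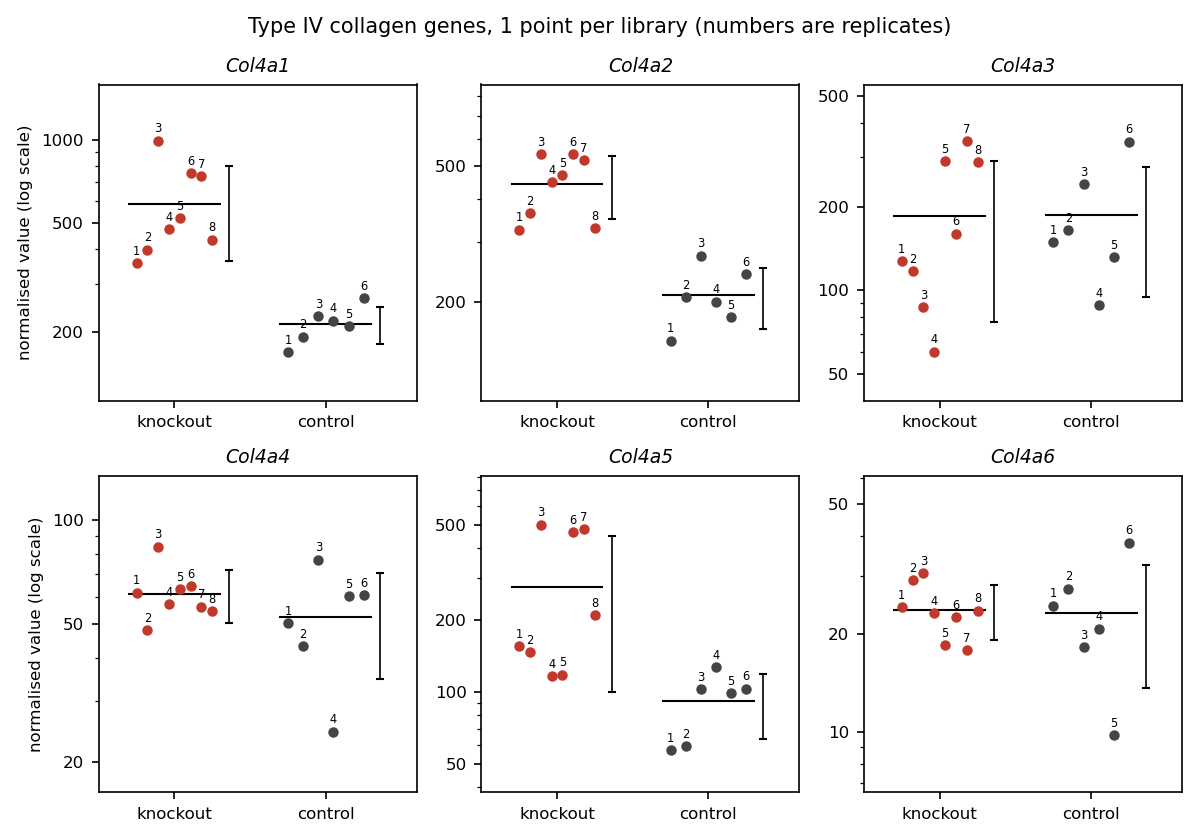
Normalised value (log scale) of the 6 type IV collagen genes in each library, knockouts left and controls right, with replicate numbers, the mean (line) and the SD (bar). Knockouts and controls are apart for Col4a1 and Col4a2, knockouts 3, 6 and 7 stand at 468 to 502 for Col4a5, and the groups overlap for Col4a3, Col4a4 and Col4a6.

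Among the 11 fibrillar genes none was called higher by limma, at an unadjusted p under 0.05 either, or by the authors' deposited q, and 1 was called lower. Type I collagen, the main collagen of fibrous tissue, is built from the chains of Col1a1 and Col1a2. Col1a1 (ENSMUSG00000001506) had values of 29.7, 16.1, 62.6, 23.3, 54.2, 47.3, 53.7 and 25.1 in knockouts 1 to 8, against 17.7, 16.4, 55.7, 24.9, 18.5 and 27.9 in controls 1 to 6. Knockouts 3, 5, 6 and 7 and control 3 formed the upper part of the range, and the groups overlapped. Its log2 change was 0.52 (SE 0.33, 95% interval -0.19 to 1.23, adjusted p = 0.291), and without knockouts 3, 6 and 7 it was 0.16. Col1a2 (ENSMUSG00000029661) had values of 324, 278, 375, 237, 586, 313, 453 and 361 in knockouts 1 to 8, against 239.9, 272, 425, 321, 326 and 452 in controls 1 to 6. Knockout 5 was the highest and knockout 4 the lowest library. Between the groups the log2 change was 0.09 (SE 0.19, 95% interval -0.32 to 0.50, adjusted p = 0.773).

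Type III collagen, which mixes with type I in fibres, spread as widely within each group. Col3a1 (ENSMUSG00000026043) had values of 333, 184, 514, 194, 587, 365, 477 and 323 in knockouts 1 to 8, against 183, 236, 452, 329, 256 and 352 in controls 1 to 6. Knockout 2 and control 1 were the lowest, at 184 and 183, and knockout 5 was the highest. Its log2 change was 0.26 (SE 0.27, 95% interval -0.32 to 0.83, adjusted p = 0.538), and without knockouts 3, 6 and 7 it was 0.034. Col5a2 (ENSMUSG00000026042), a chain of type V collagen, which starts and limits fibril growth, had values of 99.0, 59.1, 212, 57.2, 155, 118, 151 and 95 in knockouts 1 to 8, against 80.2, 75.5, 100.2, 130, 76.1 and 85.3 in controls 1 to 6. Knockouts 2 and 4 lay below every control and knockouts 3, 5 and 7 above every control. This gave a log2 change of 0.27 (SE 0.27, 95% interval -0.30 to 0.84, adjusted p = 0.509), and without knockouts 3, 6 and 7 it was -0.042. The upper bounds for Col1a2 and Col3a1 correspond to less than 1 log2 unit, whereas that for Col1a1 exceeds 1. The log2 change of Col1a1 was 0.19 among Y-positive libraries and 0.90 among Xist-high ones, that of Col3a1 was -0.02 among Y-positive libraries and 0.50 among Xist-high ones, and that of Col5a2 was -0.04 among Y-positive libraries and 0.65 among Xist-high ones, none of which passed the test.

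Col5a3, another type V chain, ran from 299 to 1405 in knockouts and from 185 to 925 in controls, and its values followed the class of the library. Y-positive libraries were at 661 to 1405 in knockouts and 327 to 925 in controls, and Xist-high libraries at 299 to 863 in knockouts and 185 to 198 in controls. Its log2 change of 0.86 (SE 0.42, 95% interval -0.03 to 1.76, adjusted p = 0.159) was not called. With the class as a covariate it was 1.07 (SE 0.29, adjusted p = 0.0142), and with depth as a covariate 1.33 (SE 0.33, adjusted p = 0.0105). Col2a1, Col5a1, Col11a1, Col11a2 and Col24a1 had log2 changes between -0.05 and 0.49, none of them called, and Col2a1 was below 10 in some libraries.

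Col27a1 (ENSMUSG00000045672, chromosome 4, 63214004 to 63334991, plus strand), a fibrillar collagen known from cartilage, was the only collagen called lower. It had values of 551, 409, 259, 877, 324, 207, 391.5 and 241 in knockouts 1 to 8, against 990.4, 771, 1046, 729, 619 and 636 in controls 1 to 6. Knockout 4 lay inside the control range and the other 7 knockouts lay below every control. The log2 change was -1.09 (SE 0.27, 95% interval -1.67 to -0.51, adjusted p = 0.00952). Without knockouts 3, 6 and 7 it was -0.85 (adjusted p = 0.0507) and was no longer called. It was -0.87 among Y-positive libraries and -1.15 among Xist-high ones, with adjusted p = 0.0892 and 0.103. The microRNA gene Mir455 lies inside Col27a1 on the same strand.

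**Figure D3:**
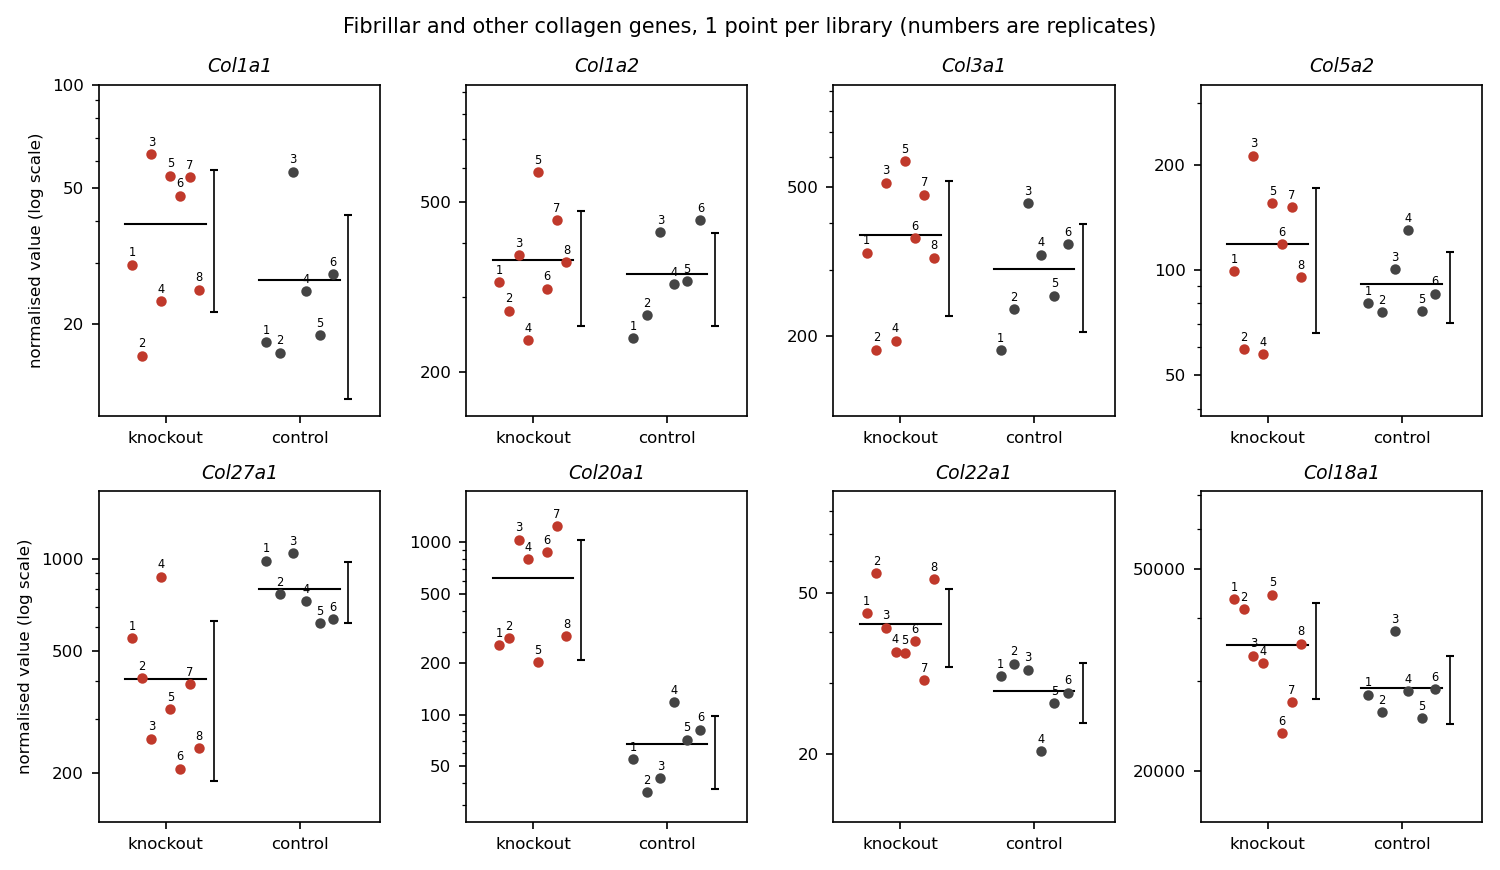
Normalised value (log scale) of 8 collagen genes in each library, knockouts left and controls right, with replicate numbers, the mean (line) and the SD (bar). Groups overlap for Col1a1, Col1a2, Col3a1, Col5a2 and Col18a1, Col27a1 is lower in 7 of 8 knockouts, Col20a1 is apart (202 to 1244 against 35.5 to 118), and Col22a1 overlaps at knockout 7.

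FACIT collagens attach to the surface of other fibrils. Col20a1 (ENSMUSG00000016356, chromosome 2, 180986535 to 181018363, plus strand), whose role in liver is not established, had the largest change of any collagen tested. It had values of 252, 279, 1039.8, 796, 202, 877, 1244 and 285 in knockouts 1 to 8, against 54.9, 35.5, 42.7, 118, 71.6 and 81.8 in controls 1 to 6. Knockouts 3, 4, 6 and 7 were at 796 or more and the other 4 knockouts at 202 to 285, all above the highest control. The log2 change was 2.97 (SE 0.44, 95% interval 2.05 to 3.90, adjusted p = 0.000249), a fold of 7.86. Without knockouts 3, 6 and 7 it was 2.33 (adjusted p = 0.000989), a smaller value that still passed. It was 3.11 among Y-positive libraries and 2.69 among Xist-high ones (adjusted p = 0.0061 and 0.124). A transcript annotated as sense overlapping, 9230112E08Rik, shares 741 bases with the Col20a1 locus on the same strand.

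Col22a1 (ENSMUSG00000079022, chromosome 15, 71795795 to 72034227, minus strand), a FACIT known from tissue junctions such as those of muscle and tendon, had values of 44.6, 55.9, 41.1, 35.8, 35.6, 38.1, 30.5 and 54.2 in knockouts 1 to 8, against 31.1, 33.5, 32.3, 20.3, 26.7 and 28.3 in controls 1 to 6. All knockouts except knockout 7 lay above the highest control. Its log2 change was 0.52 (SE 0.17, 95% interval 0.16 to 0.89, adjusted p = 0.037), the smallest of the calls. It lost the call in 13 of the 26 refits that tested it (other filters, scalings, covariates, classes or left-out libraries), among them leaving out any of knockouts 1, 2, 3 and 8 or controls 1, 4, 5 and 6 (adjusted p = 0.0502 to 0.0916). It was also lost at an adjusted p of at most 0.01 and with a minimum change of 1.5-fold. An antisense transcript, Gm16308, overlaps it.

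Col14a1, a FACIT of fibroblasts, ran from 928 to 2586 in knockouts and from 1552 to 2243 in controls, with 7 of 8 knockouts below the control mean and knockout 5 above every control. Its log2 change of -0.45 (SE 0.18, 95% interval -0.83 to -0.07, adjusted p = 0.0814) was not called, and without knockout 5 it was -0.57 (SE 0.13, adjusted p = 0.0058). Col16a1 had a change of 0.44 (SE 0.21, 95% interval 0.00 to 0.88, adjusted p = 0.141). Col9a3, Col12a1 and Col19a1 had changes between -0.38 and 0.03, and none was called. FACIT genes held 2 calls among 7 tested, both higher, against 11.5% of all genes, and 1 of the 2, Col22a1, is the unstable call described above.

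Type VI collagen forms beaded filaments around cells. Col6a1 (ENSMUSG00000001119) had values of 179, 125, 285, 151, 255, 197, 242 and 249 in knockouts 1 to 8, against 176, 161, 243, 214, 208 and 254 in controls 1 to 6. The groups overlapped throughout, with a log2 change of -0.02 (SE 0.18, 95% interval -0.41 to 0.37, adjusted p = 0.949). Col6a2 had a change of 0.05 (SE 0.16, 95% interval -0.29 to 0.38, adjusted p = 0.87) and Col6a3 of 0.38 (SE 0.28, 95% interval -0.21 to 0.98, adjusted p = 0.357), and Col6a3 was above every control in knockouts 3, 5, 6 and 7. The lower-level chains Col6a4, Col6a5 and Col6a6 had log2 changes between -0.10 and 0.28. None of the 6 type VI genes was called by limma or by the deposited q, and none had an unadjusted p under 0.05.

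Col18a1 (ENSMUSG00000001435) was the collagen with the highest values in these livers, taking 75.4% to 87.8% of the summed collagen values in knockouts and 79.3% to 82.9% in controls. It had values of 43581, 41564, 33701, 32562, 44458, 23723, 27270 and 35589 in knockouts 1 to 8, against 28255, 26078, 37685, 28668, 25360 and 28955 in controls 1 to 6. Knockouts 1, 2 and 5 were above every control, and knockout 6 was below every control. Its log2 change was 0.26 (SE 0.16, 95% interval -0.08 to 0.60, adjusted p = 0.27). Without knockouts 3, 6 and 7 it was 0.44 (adjusted p = 0.0321), which passed. Under scaling to equal sums outside ribosomal RNA it was 0.60 (adjusted p = 0.00425), and under quantile normalisation 0.87 (adjusted p = 2.78e-04). Part of Col18a1 overlaps Slc19a1, a folate transporter gene on the opposite strand. Summed over the other 43 collagens, the values were 7822 ± 1342 in knockouts and 6731 ± 944 in controls (SD, n = 8 and 6).

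The transmembrane collagens Col13a1, Col17a1, Col23a1 and Col25a1 had log2 changes between -0.54 and -0.04, all below 0 and none called. Of these Col17a1, known from the attachment of epithelia, varied most, from 9.60 to 87.1 in knockouts and from 36.7 to 81.6 in controls. The network-forming Col8a1, Col8a2 and Col10a1 and the type XXVI gene Col26a1 had changes between -0.11 and 0.27, and the multiplexin Col15a1 had a change of 0.04; none was called. The 4 genes not tested had low means, Col7a1 at 7.47 in knockouts and 7.32 in controls, Col9a1 at 10.2 in knockouts and 5.78 in controls, Col9a2 at 5.62 in knockouts and 5.46 in controls, and Col28a1 at 5.29 in knockouts and 4.51 in controls. Col4a3bp, matched only by its symbol, was lower in all 8 knockouts than in every control, at 618 ± 67.0 (SD, n = 8) in knockouts and 798 ± 79.6 (SD, n = 6) in controls, with a log2 change of -0.37 (SE 0.09, adjusted p = 0.0108).

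**Figure D4:**
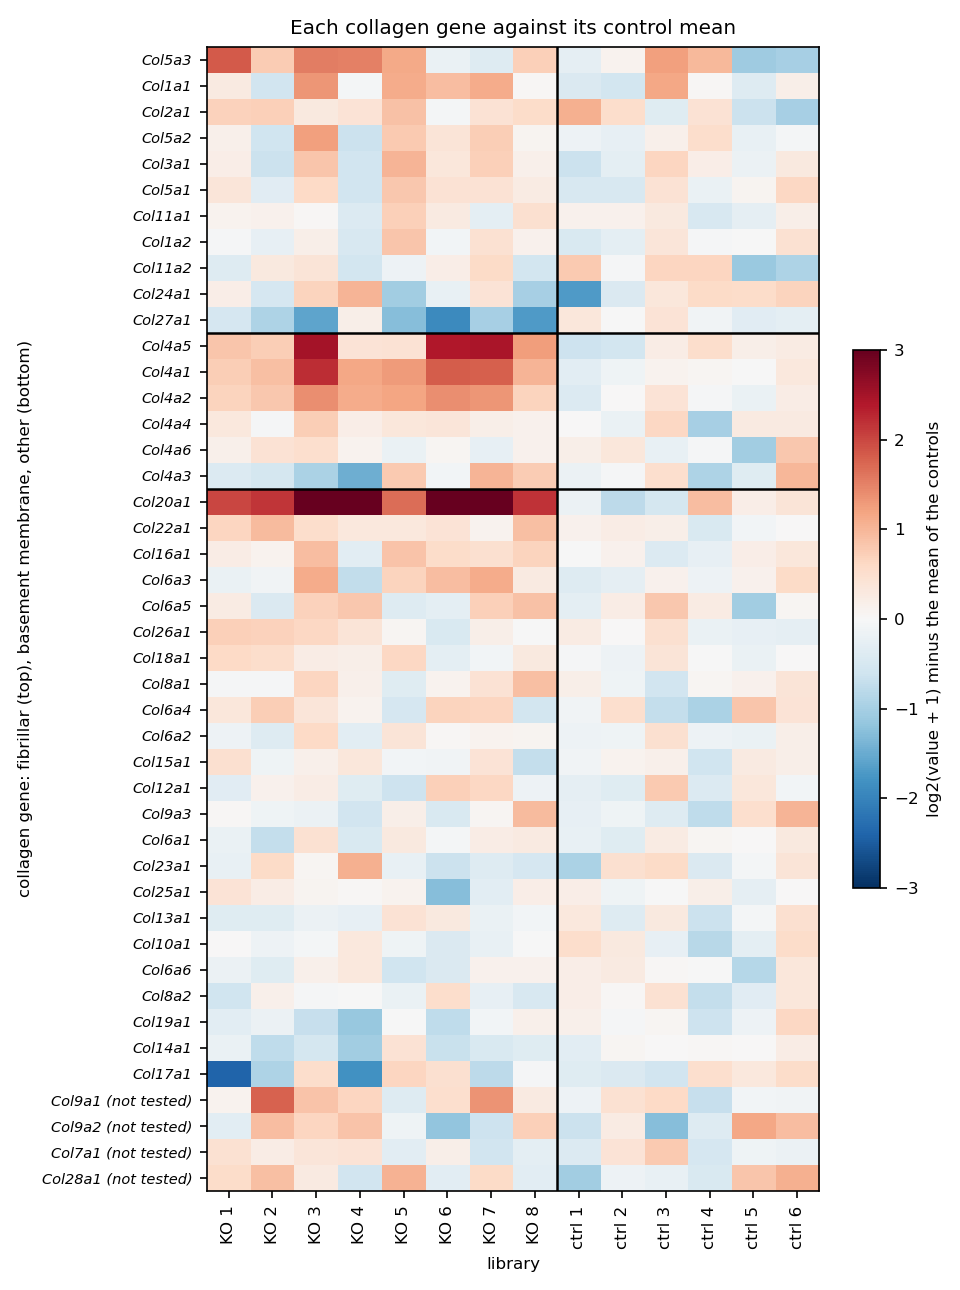
Log2(value + 1) of each of the 44 collagen genes in each library minus the mean of the 6 controls, with knockouts left of controls and fibrillar, basement membrane and other genes from top to bottom; the colour scale stops at 3 in both directions. Col4a1, Col4a2, Col4a5 and Col20a1 are red across the knockouts, most deeply in knockouts 3, 6 and 7, and for Col20a1 also in knockout 4. Col27a1 is blue in 7 of 8, and most other rows show no split between the groups.

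Levels can be compared between genes only per length, here as the mean normalised value per kilobase of the longest annotated transcript. On this scale Col18a1 led by a wide margin, at 6310.3 in knockouts and 5213 in controls, followed in controls by Col14a1, at 228 in knockouts and 300.3 in controls. Col27a1, at 53.6 in knockouts and 105 in controls, came next in controls, with SDs of 28.9 in knockouts and 23.7 in controls. Col13a1, Col5a3, Col1a2, Col6a2, Col3a1 and Col6a1 followed in controls at 85.4 to 51.0, and neighbours in this order did not differ beyond their SDs. Col4a1, at 88.2 in knockouts and 32.5 in controls, and Col4a2, at 68.5 in knockouts and 32.4 in controls, were nearly equal in controls. In knockouts Col20a1 reached 124, with an SD of 82.6, against 13.5 in controls, and only Col18a1, Col14a1 and Col5a3 had higher knockout means. Col1a1 was at 6.58 in knockouts and 4.53 in controls, well under Col1a2, at 68.4 in knockouts and 63.4 in controls, although the type I trimer holds more of the Col1a1 chain. These levels depend on the transcript taken for length. That length was similar for Col1a1 and Col1a2, at 5930 and 5348 bases, and the reason for the gap between them was not tested.

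Ratios of 2 genes within a library depend on how libraries were scaled only through the 1 added to each value, and 9 pairs of chains were compared by two-sided exact permutation tests over 8 knockouts and 6 controls, adjusted over the 9 pairs. The log2 ratio of Col4a1 to Col1a1 was 3.92 ± 0.41 in knockouts and 3.07 ± 0.54 in controls (SD, n = 8 and 6). The difference of 0.85 was called by the exact test (p = 0.00266, adjusted p = 0.0240), and all 8 knockouts were above the control mean. These chains belong to different collagen types, and Col4a1 was already called higher on its own, so this ratio is not a separate result. Control 3 had the lowest ratio, 2.02, and without it the difference was 0.64 (exact adjusted p = 0.0559). The difference was 1.14 among Y-positive libraries and 0.43 among Xist-high ones, where the smallest p the exact test allows is 0.0286 and 0.133 before adjustment. The ratio of Col4a1 to Col4a2 differed by 0.29 (exact adjusted p = 0.122), and that of Col4a5 to Col4a6 by 1.26 (exact adjusted p = 0.122), with all 8 knockouts above the control mean in both. These differences, without knockouts 3, 6 and 7, were 0.13 and 0.61 (exact adjusted p = 0.589 for each). Col1a1 to Col1a2, Col3a1 to Col1a1, Col5a1 to Col5a2, Col4a3 to Col4a4, Col6a1 to Col6a2 and Col6a3 to Col6a1 differed by -0.39 to 0.43, and none was called.

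**Figure D5:**
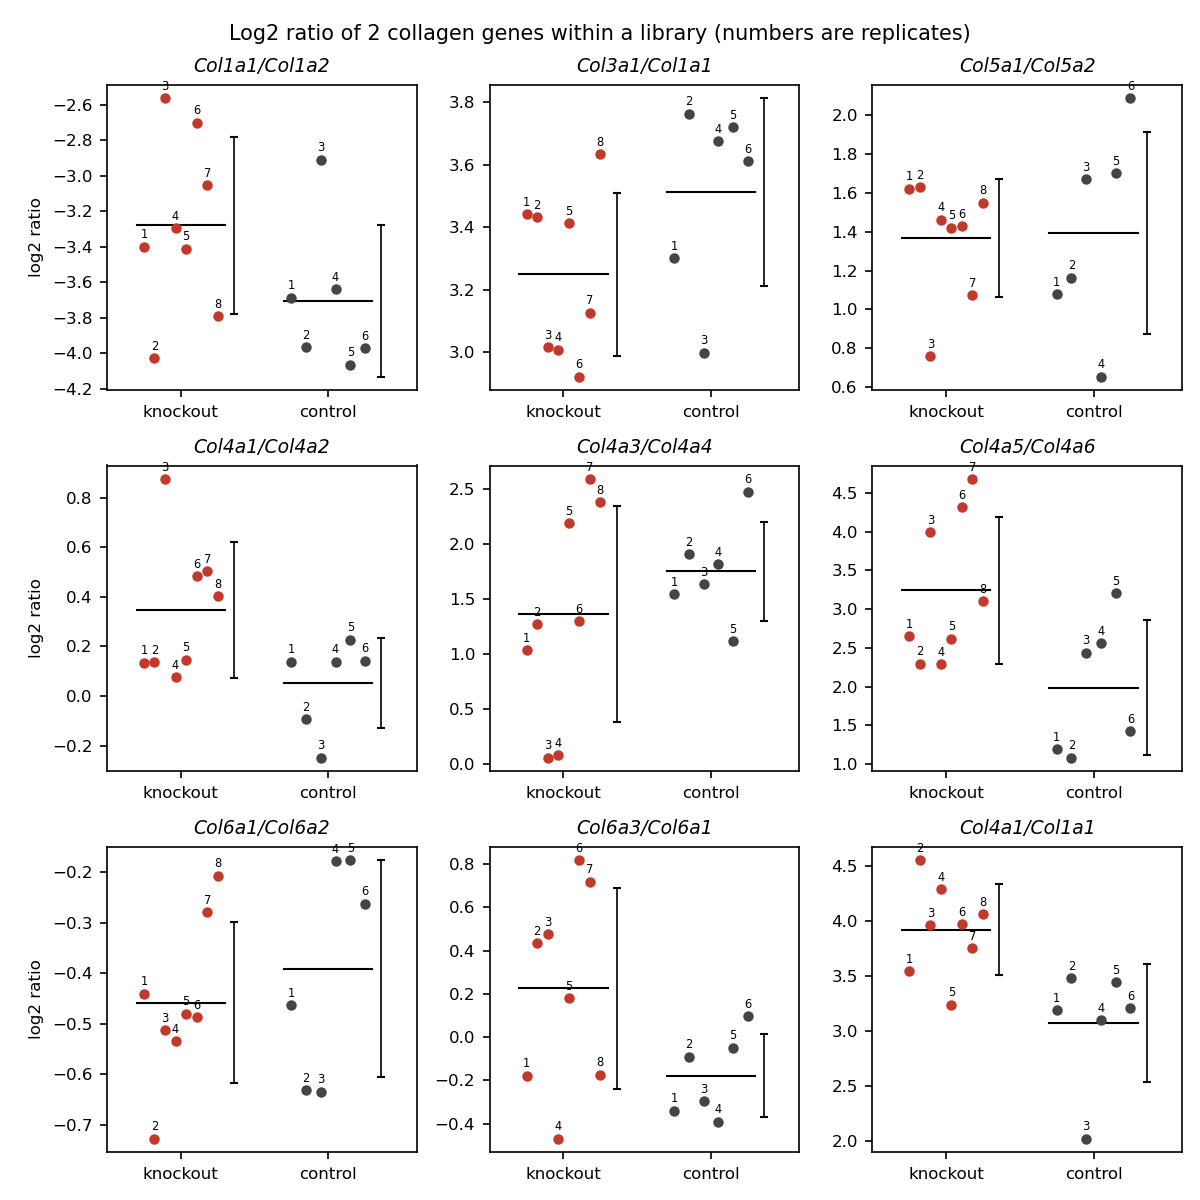
Log2 ratio of 2 collagen genes (value + 1 each) within each library for 9 pairs, knockouts left and controls right, with replicate numbers, the mean (line) and the SD (bar). The ratio of Col4a1 to Col1a1 is 3.24 to 4.55 in knockouts and 2.02 to 3.48 in controls, with control 3 lowest, and the groups overlap in all 9 pairs.

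Genes that make, trim, cross-link, degrade or sense collagen, and other matrix genes, were taken as 7 lists of 122 genes in all, of which 117 were tested. Of these 16 were higher (13.7%) and 7 were lower (5.98%) in knockouts, against 11.5% and 11% of all genes. Values in parentheses are log2 changes with SE and limma's adjusted p. Among 20 genes of collagen modification and folding, 4 were higher and 1 was lower. Higher were Colgalt2 (0.91, SE 0.29, adjusted p = 0.0335) and Colgalt1 (0.48, SE 0.09, adjusted p = 0.00121), which transfer galactose to hydroxylysine of collagen, Creb3l1 (0.65, SE 0.22, adjusted p = 0.0461), a transcription factor of secretory cells, and P3h1 (0.37, SE 0.13, adjusted p = 0.0466), a prolyl 3-hydroxylase. Lower was Mia3 (-0.44, SE 0.10, adjusted p = 0.00504), which helps to load procollagen for export. The calls of Colgalt2, Creb3l1 and P3h1 were unstable. Colgalt2 lost its call in 12 of 26 refits, among them leaving out any of knockouts 1, 2, 3, 4 and 8 or controls 1, 2, 3 and 6. Creb3l1 lost it in 17 of 26, among them leaving out any of knockouts 3 to 7 or controls 2, 4, 5 and 6. P3h1 lost it in 17 of 27, among them leaving out any library but knockout 4 and controls 3 and 4. Serpinh1, the collagen chaperone, had a change of 0.27 (adjusted p = 0.37).

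Among 18 genes of trimming and cross-linking, Tgm2 (0.86, SE 0.16, adjusted p = 0.00167), transglutaminase 2, was higher, and Bmp1 (-0.56, SE 0.15, adjusted p = 0.0125), the procollagen C-proteinase, was lower. Collagen breakdown held 4 genes called higher and none lower of 13 tested, Mmp12 (2.33, SE 0.49, adjusted p = 0.00326), Mmp15 (1.503, SE 0.15, adjusted p = 1.17e-05), Mmp13 (1.17, SE 0.29, adjusted p = 0.00914) and Mmp14 (0.73, SE 0.20, adjusted p = 0.0151), all matrix metalloproteinases. Mmp15, a membrane-bound member, was at 1731 to 3249 in knockouts and 574 to 1048 in controls. Mmp12 of macrophages was at 38.0 to 340.3 in knockouts and 10.7 to 21.3 in controls. Mmp13 was at 8.09 to 39.3 in knockouts and 5.08 to 10.9 in controls. It reached 10 in 7 knockouts and 1 control, so the knockouts alone carried it past the filter, which limits its call. Without knockouts 3, 6 and 7, Mmp13 (0.874, limma adjusted p = 0.0518) and Mmp14 (0.44, adjusted p = 0.0792) lost their calls, and Mmp12 and Mmp15 kept theirs. Among Y-positive libraries Mmp14 was at 0.445 (adjusted p = 0.287) and was not called. In Xist-high libraries only Mmp15 of these genes was called. Mmp3, Mmp7, Mmp8, Mmp9 and Timp1 were below the filter. Of the 9 collagen receptors none was called by limma or by the deposited q, while 4 had an unadjusted p under 0.05. The smallest was that of Itgb1 (0.24, SE 0.09, adjusted p = 0.0792), the shared beta chain of the collagen-binding integrins. The share of all genes with an unadjusted p under 0.05 is not given here, so the count of 4 cannot be read against it.

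Laminins, nidogens and perlecan are the partners of type IV collagen in basement membranes, and of 15 such genes 1 was higher and 1 lower. Nid2 (0.63, SE 0.18, adjusted p = 0.0206), nidogen 2, was higher, and Lama3 (-1.15, SE 0.37, adjusted p = 0.0363), a laminin chain of epithelia, was lower. Lama3 was at 39.6 to 147 in knockouts and, in controls, at 202 to 320 in Y-positive and 72.4 to 75.0 in Xist-high libraries. It lost its call in 15 of 27 refits, among them leaving out any of knockouts 3, 5, 6, 7 and 8 or controls 1 to 4. Nid2 lost it without control 2 or 6. Of 20 interstitial matrix glycoproteins, Eln (0.93, SE 0.21, adjusted p = 0.00523), elastin, was higher. Lower were Vtn (-0.86, SE 0.22, adjusted p = 0.0102) and Fn1 (-0.61, SE 0.17, adjusted p = 0.0151), vitronectin and fibronectin, which hepatocytes secrete into plasma, and Fbln5 (-0.40, SE 0.12, adjusted p = 0.022), fibulin 5, which lost its call without control 3 or 4. Of 22 genes of TGF-beta and PDGF signalling, 5 were higher and 1 was lower. Among those higher were the ligands Pdgfc (1.70, SE 0.25, adjusted p = 0.000259) and Pdgfa (1.03, SE 0.31, adjusted p = 0.0237), the inhibitor Smad7 (0.73, SE 0.13, adjusted p = 0.00105) and the receptor Tgfbr2 (0.65, SE 0.21, adjusted p = 0.0386). The co-receptor Tgfbr3 (-0.69, SE 0.16, adjusted p = 0.00548) was lower. In knockouts 3, 6 and 7 Pdgfa was at 698 to 948, against 217 to 356 in the remaining 5 and 165 to 230 in controls. Tgfbr2 was at 2359 to 2785 in those 3, 1219.6 to 1369 in the remaining 5 and 809.7 to 1330.2 in controls. The log2 change without knockouts 3, 6 and 7 was 1.25 for Pdgfc (adjusted p = 6.69e-05), 0.47 for Pdgfa (adjusted p = 0.0303) and 0.28 for Tgfbr2 (adjusted p = 0.141). Tgfbr2 also lost its call without any of knockouts 3, 6 and 7 or controls 1, 2, 4, 5 and 6, and Pdgfa without control 6. Of the 7 pathway genes called lower, only Vtn stayed called under scaling to equal sums outside ribosomal RNA.

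Markers of the cells that liver tissue holds moved in several ways, given here as sums of values (mean ± SD, n = 8 and 6). Their calls are read against 11.5% of all genes called higher and 11% called lower. The 15 stellate cell markers summed to 6559.9 ± 1133 in knockouts and 6857 ± 1004 in controls, and 1 was called higher and 2 lower. The 7 myofibroblast and smooth muscle markers summed to 1571 ± 822 in knockouts and 967 ± 386 in controls, with Acta2, smooth muscle actin, at -0.35 (adjusted p = 0.538), 1 called higher and 1 lower. The higher gene was Tpm2, a tropomyosin, at 1114 ± 886 in knockouts and 319 ± 165 in controls, which makes up the excess in the sum, and the lower was Myh11, smooth muscle myosin. Of the 6 tested only Tpm2 had a log2 change above 0, and the median was -0.32. The 9 portal fibroblast markers summed to 911 ± 287 in knockouts and 606 ± 81.6 in controls, 2 of 8 tested were higher (one of them Eln), and knockouts 3, 6 and 7 were at 1068 to 1403, against 576 to 890.2 in the remaining 5. Entpd2 and Eln together made up the excess in this sum. Entpd2 was at 77.4 to 649 in knockouts and 42.8 to 77.1 in controls, and Eln at 143 to 390 in knockouts and 93.7 to 152 in controls. Dpt went the other way, at 84.5 to 244 in knockouts and 167 to 261 in controls. Of the 8 tested, 6 had a log2 change above 0, and the median was 0.35. The 8 bile duct markers summed to 2582 ± 890.1 in knockouts and 1388 ± 343 in controls, 3 of 7 tested were higher (Sox9, Spp1 and Epcam), and knockouts 3, 6 and 7 were at 3176 to 4040.3, against 1726 to 2182 in the remaining 5. All 7 had a log2 change above 0, with a median of 0.69, but Krt19 overlapped, at 68.2 to 219 in knockouts and 31.9 to 352 in controls. Spp1, at 583 to 2542 in knockouts and 438 to 719 in controls, made up most of the excess in the sum. In knockouts 3, 6 and 7 Spp1 alone was at 1920 to 2542. Col4a1, Col4a2 and Col4a5 were high in those 3 libraries, and Col20a1 was high in them and in knockout 4.

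The 10 endothelial markers, of cells that also make type IV collagen, summed to 4635 ± 794 in knockouts and 6001 ± 513 in controls. Of them 4 were called lower (40%) and none higher, against 11% and 11.5% of all genes. Under scaling to equal sums outside ribosomal RNA none of the 10 was called by limma, or had an unadjusted p under 0.05, and their median log2 change was 0.05 in place of -0.29. The 10 hepatocyte markers summed to 585947 ± 153410 in knockouts and 905195 ± 60554 in controls. Of them 7 were lower (70%) and none higher, and 4 were lower under equal sums. Over all 23554 genes, equal sums gave 7836 higher and 868 lower. Kupffer cell markers summed to 10315 ± 3756 in knockouts and 9762 ± 1306 in controls, and mesothelial, lymphocyte and neutrophil markers to 258 ± 53.4 in knockouts and 284 ± 84.3 in controls, 166 ± 34.5 in knockouts and 177 ± 31.0 in controls and 86.5 ± 48.9 in knockouts and 55.2 ± 20.7 in controls. None of these 4 lists held a call, by limma or by the deposited q, and none of the 22 members tested, of 27, had an unadjusted p under 0.05, while 1 lymphocyte marker was called higher under equal sums. No marker was at 0 in every library. The part of these cell types in the collagen changes was not tested.

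Whether the knockout effect on collagens differed between the Y-positive and Xist-high classes was tested with an interaction term. No collagen was called by limma, against 0.0552% of all genes (13 of 23554), and 3 collagens, Col2a1, Col11a2 and Col24a1, had an unadjusted p under 0.05. The share of all genes under that unadjusted p is not given, so the 3 cannot be read against it. Only 2 controls were Xist-high, which limits this test. The difference in log2 change was -0.0029 (SE 0.44) for Col4a1, 0.12 (SE 0.34) for Col4a2 and -0.41 (SE 0.95) for Col20a1.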

How the data were processed

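Liver RNA of 8 Mettl3 knockout and 6 floxed control libraries was measured by stranded total RNA sequencing (Takara SMARTer Pico, per the labels' protocols). Per the submitters' processing notes, kallisto and sleuth were used on mm10, and the strand setting, versions and replicate pooling are not given in the sources used here. The authors deposited 1 table with a signal value per gene and library, a normalised estimated count (kallisto's estimated count divided by a size factor per library, as read from the values), with p-values and q-values of sleuth's test. Their deposited change was the natural log of (value + 0.5), control minus knockout, to within 4.71e-08. The 75859 lines were reduced to 54446 genes.

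Depth per library, in estimated reads, is the sum of values divided by the worth of 1 read. That worth was taken as the most frequent positive value of the library. No counting intervals are given because the values are not whole reads. The 23554 genes that reached 10 in 6 or more libraries were tested with limma 3.58.1 in R 4.3.3 (eBayes with trend) on log2(value + 1), knockout minus control, with Benjamini-Hochberg adjustment over all of them, calling at 0.05. A fold change on this scale understates the change of genes with low values. Ratios were tested by two-sided exact permutation (scipy 1.17.1). The limma and permutation steps were tested on simulated data. Intervals are 95% intervals from the moderated fit. Transcript lengths, overlaps and 3′ UTRs are from GENCODE M21, and promoters and miRNAs from RefSeq on GRCm38.p6.

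The collagen members and all lists were chosen with earlier results of these data known. Named genes were the 8 collagens Col1a1, Col1a2, Col3a1, Col4a1, Col4a2, Col5a2, Col6a1 and Col18a1, every collagen called, and up to 3 called genes per pathway list, or the one with the smallest p. Other names were added after their values were seen. Not every gene of the lists is reported by name here. Replicate numbers are shared by the groups, but the deviations of same-numbered libraries correlated at 0.07 to 0.23, not all above 0.1, so they were not treated as pairs. Alternatives covered the filter, pseudocount, weights, scaling, covariates, class, depth, a replicate block, thresholds and leaving out libraries.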

Additional observations from a re-analysis of the deposited data

Results flagged for a closer look

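In a group of 6 controls or 8 knockouts, a library was looked at again when its gap to the next value was large for the group's range (Dixon's 95% critical value), over 42 groups of values of the named collagens and the pair ratios. Chance flags about 1 in 20 groups, and 3 groups were flagged, all for control 3. Col18a1 was 37685 in control 3, against 25360 to 28955 in the other 5 controls. The log2 ratio of Col1a1 to Col1a2 was -2.91 in control 3, and the log2 ratio of Col4a1 to Col1a1 was 2.02 there, in each case the control furthest from the others. Control 3 also had the highest Col1a1 value of the controls, 55.7, which enters both ratios. No collagen was flagged for a difference in knockout effect between the Y-positive and Xist-high classes.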

How the results depend on the processing

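The calls of Col4a1, Col4a2 and Col20a1 held in every alternative tried except the Xist-high libraries alone (4 knockouts, 2 controls; log2 changes 1.33, 1.13 and 2.69). Collagens called higher, 5 as reported, numbered 10 under equal sums, 3 in Y-positive libraries, 0 in Xist-high libraries and 3 at an adjusted p of 0.01, where the threshold is itself the change. Collagens called lower, 1 as reported, numbered 2 with the class or depth as covariate, 0 in either class alone and 0 without knockouts 3, 6 and 7, and 1 to 2 when leaving out 1 library. The 2 within-class fits have fewer samples. For the other settings the cause was not tested.

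Pathway genes called higher, 16 as reported, numbered 10 without the filter, 43 under equal sums, 9 in Y-positive libraries, 1 in Xist-high libraries and 8 at 0.01. Those called lower, 7 as reported, numbered 1 under equal sums, 0 in Xist-high libraries, 2 at 0.01 and 4 with a minimum of 1.5-fold. Pairs called by ratio, 1 as reported, numbered 0 in Y-positive libraries, 0 in Xist-high libraries, 0 without knockouts 3, 6 and 7, and 0 to 1 when leaving out 1 library (0 without control 1, 3, 4 or 6), and 1 with labels permuted within the classes. In the within-class tests and in 6 pairs the smallest exact p allowed is 0.0286, 0.133 and 0.0312, so after adjustment over 9 pairs these could hardly pass.

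With a replicate block, collagens called higher numbered 5 and lower 1, with Col5a3 (log2 1.10, adjusted p = 0.0239) in place of Col22a1 (0.53, adjusted p = 0.0527). Pathway genes called lower numbered 4, and pairs 0. With the block, 2037 of all 23554 genes were called higher and 1917 lower. Only 3 of 6 knockouts and 2 of 6 controls correlated best with their own number.

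Uncalled log2 changes that took the other sign were those of Col1a2 (-0.037 in Y-positive libraries, -0.077 with depth, -0.011 to 0.18 leaving out 1 library), Col3a1 (-0.019 in Y-positive libraries), Col5a2 (-0.036 in Y-positive libraries, -0.042 without knockouts 3, 6 and 7), Col6a1 (0.32 under equal sums, 0.033 in Xist-high libraries, -0.094 to 0.0783 leaving out 1 library), and the ratios of Col5a1 to Col5a2 (0.23 in Y-positive libraries, 0.14 without knockouts 3, 6 and 7, -0.17 to 0.11 leaving out 1 library) and Col4a3 to Col4a4 (0.32 in Xist-high libraries). The class interaction called 0 collagens under each alternative run, all chosen after seeing the data. The depth of the shallowest library, 11.1 in units of 1000000 estimated reads, limits the genes with values near 10.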
